A study of Mus musculus with 6 samples.

Results

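Genes whose products shape the endoplasmic reticulum (ER) were described, 10 in all: the atlastins Atl1, Atl2 and Atl3, the receptor expression-enhancing proteins Reep1, Reep2 and Reep5, the reticulons Rtn1, Rtn3 and Rtn4, and spastin (Spast). Their members were every probe set that the platform annotation gives to exactly 1 gene of this list, and 23 of the 45101 probe sets of the array qualified. They covered 9 of the 10 genes, and Atl2 was not analysed here. The arrays compare dorsal root ganglia (DRG), where sensory neurons have their cell bodies, with spinal cord (SC), both taken from lumbar levels L1 to L6. All mice were male C57BL/6J animals aged 3 months with no treatment named in the labels. Each tissue had 3 arrays, and each array held biotin-labelled material of a pool of 4 mice, so a value is an average over 4 animals and over every cell type of the tissue.

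The ER of a neuron runs as a network of sheets and tubules into the axon. Reticulons and REEPs insert hairpins into the membrane and bend it into tubules, atlastins are membrane-bound GTPases that fuse tubules at junctions, and spastin is an ATPase that cuts microtubules and binds atlastin and REEP proteins. Mutations of Spast, Atl1, Reep1 and Reep2 cause hereditary spastic paraplegia, a degeneration of long corticospinal axons, and mutations of Atl1 and Atl3 cause hereditary sensory neuropathy. Rtn4 is also known as Nogo, and its longest form, Nogo-A, is exposed on central myelin, where it inhibits axon growth.

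The promoter windows below belong to 3 members whose tissue difference, by the brightest probe set, held under each array scaling tried (Atl1, Atl3, Reep1). They also belong to 2 members whose difference did not (Spast, Rtn3). Each window runs from 250 bases before to 50 bases after a RefSeq start on mouse assembly GRCm38.p6, 5′ to 3′ on the strand of the gene, and capitals mark the GC box GGGCGG or its reverse complement CCGCCC.
Atl1 promoter, chr12:69892855-69893154, plus strand: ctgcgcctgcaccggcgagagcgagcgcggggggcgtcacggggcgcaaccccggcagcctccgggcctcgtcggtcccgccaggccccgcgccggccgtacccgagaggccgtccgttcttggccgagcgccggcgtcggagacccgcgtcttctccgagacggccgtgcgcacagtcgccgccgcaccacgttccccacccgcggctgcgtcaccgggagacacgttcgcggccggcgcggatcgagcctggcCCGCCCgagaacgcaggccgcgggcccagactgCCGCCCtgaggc
Atl3 promoter, chr19:7494188-7494487, plus strand: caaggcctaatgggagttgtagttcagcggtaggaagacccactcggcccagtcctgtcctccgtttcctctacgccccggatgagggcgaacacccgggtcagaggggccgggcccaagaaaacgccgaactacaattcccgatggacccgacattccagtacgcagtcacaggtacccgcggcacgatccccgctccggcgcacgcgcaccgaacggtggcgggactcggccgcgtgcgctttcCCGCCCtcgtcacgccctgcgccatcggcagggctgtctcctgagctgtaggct
Reep1 promoter, chr6:71707431-71707730, plus strand: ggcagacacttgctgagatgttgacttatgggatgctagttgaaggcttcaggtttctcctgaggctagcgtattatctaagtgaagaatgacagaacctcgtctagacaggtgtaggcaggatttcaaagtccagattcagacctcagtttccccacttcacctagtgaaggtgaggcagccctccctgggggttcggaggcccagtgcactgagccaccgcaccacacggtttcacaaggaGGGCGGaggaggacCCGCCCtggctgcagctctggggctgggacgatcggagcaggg
Spast promoter, chr17:74338737-74339036, plus strand: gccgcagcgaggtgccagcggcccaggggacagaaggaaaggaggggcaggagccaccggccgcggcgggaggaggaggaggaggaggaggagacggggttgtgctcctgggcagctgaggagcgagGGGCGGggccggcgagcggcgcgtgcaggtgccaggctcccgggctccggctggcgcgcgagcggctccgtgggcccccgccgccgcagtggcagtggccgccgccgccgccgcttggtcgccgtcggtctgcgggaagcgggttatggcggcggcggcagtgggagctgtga
Rtn3 promoter, chr19:7483242-7483541, minus strand: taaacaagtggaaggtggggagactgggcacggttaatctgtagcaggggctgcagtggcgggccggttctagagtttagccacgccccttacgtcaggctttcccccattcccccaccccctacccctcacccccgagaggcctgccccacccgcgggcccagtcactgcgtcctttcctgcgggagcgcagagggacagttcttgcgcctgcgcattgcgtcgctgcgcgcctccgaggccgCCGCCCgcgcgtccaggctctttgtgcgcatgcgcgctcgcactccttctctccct
The GC content of these windows was 78.3% for Atl1, 66.0% for Atl3, 56.7% for Reep1, 77.3% for Spast and 67.0% for Rtn3. A GC box on either strand was present in 9 of the 11 windows matched to 7 of the measured genes (no window of Reep2 or Reep5 was used) and in 35.7% of all 32851 windows of the table. No member window held TATAAA or its reverse complement, which 13.6% of all windows held, and none held CACGTG, which 7.15% held. CCAAT, read on both strands, was found in 2 of the 11 windows and in 37.4% of all windows. Each of the 5 printed windows held at least 1 GC box, those of genes with a stable difference and those of genes without one alike. Rtn4 has 3 RefSeq starts in the table, at positions 29692898, 29693774 and 29718563 of chromosome 11, the last lying 25665 bases after the first. Rtn1 has 3 starts on chromosome 12, spread over 173308 bases. The probe sets were not tied to single starts, because no probe sequences were used.

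Values are MAS5 signals recovered from the deposited ratios, with the authors' array scaling kept. A difference is the mean of log2(signal + 16) in DRG minus that in SC, given with its standard error (SE), and a call is limma's adjusted p under 0.05. The background level is the 95th percentile, on each array, of probe sets of genes foreign to both tissues. Arrays of one tissue correlated at 0.973 to 0.977 and arrays of different tissues at 0.888 to 0.892 (Pearson, log2 values). Markers fitted the labels. All 8 sensory neuron markers measured were called higher in DRG, with summed signals of 34941 to 36016 against 649 to 791, and all 8 astrocyte markers were called higher in SC, with 21463 to 23716 against 1189 to 1334. No array stood apart from the others of its tissue.

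Most ER shaping genes were higher in DRG than in SC. All 9 measured genes were called higher in DRG by their brightest probe set, 5 of them by a log2 difference of at least 1, and their median difference was 1.09, beside 0.18 for all genes. Over all 18190 genes, 41.5% were called, 31.8% higher in DRG and 9.69% higher in SC. With a log2 difference of at least 1, 11.5% were called higher in DRG and 4.77% higher in SC. Of the 23 probe sets, 19 were called higher in DRG, 1 higher in SC and 3 were not called, where 22.7% and 9.79% of all 45028 probe sets tested were called in these directions and 32.4% in either. The 3 DRG arrays lay above the 3 SC arrays for 19 member probe sets, as for 28.4% of all probe sets and 37.9% of all genes, and the reverse held for 1, as for 15.1% and 13.8%. Bright genes were mostly higher in DRG on this array scaling. Among the brightest 10% of genes, a class set after the data were seen, 73.6% were called higher in DRG, 9.24% higher in SC, and the median difference was 0.59.

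**Figure D1:**
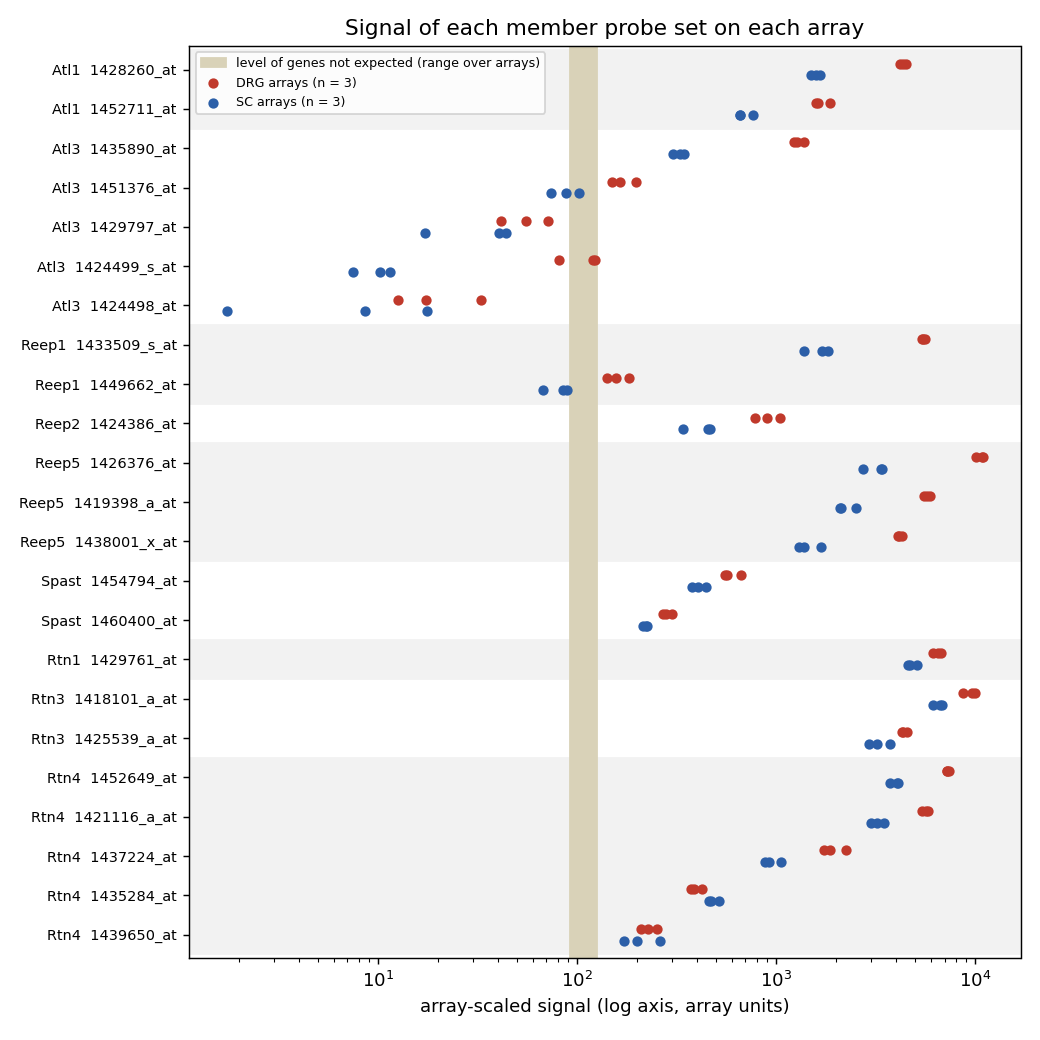
Array-scaled signal (log axis, array units) of each of the 23 member probe sets on each of the 3 DRG arrays (red) and 3 SC arrays (blue), grouped by gene. The band is the range of the background level over arrays, and DRG points lie to the right of SC points in 19 rows, while 1 Rtn4 probe set shows the opposite order.

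The array scaling decided which of these calls stood. The deposited values carry array factors of 84.5 to 89.5 for DRG and 110.5 to 112.6 for SC, and these raise DRG relative to SC. Before these factors the arrays already shared a trimmed mean signal of 247.3 to 247.5. Their median signals were then 82.6 to 87.5 for DRG and 108.3 to 109.95 for SC. With the factors, the medians of all arrays were 95.8 to 96.1. Over all genes, 76.6% of calls were toward DRG on the deposited scaling, 56.2% with quantile normalization and 49.5% before the array factors, with median differences of 0.18, 0.04 and −0.10. The median of the 9 member genes was 1.09, 0.70 and 0.72 in the same order. Atl1, Atl3, Reep1, Reep2, Reep5 and Rtn4 stayed called higher in DRG on all 3 scalings, 6 of 9 genes, where quantile normalization left 20.5% of all genes called higher in DRG and 16% in SC, and signals before the array factors 19.3% and 19.7%. Spast, Rtn1 and Rtn3 were called on the deposited scaling alone. Of the 23 probe sets, 13 kept call and direction on all 3 scalings, 12 higher in DRG and 1 higher in SC. Over all probe sets, 14.9% were called higher in DRG after quantile normalization and 13.3% before the array factors. Toward SC, 6468 and 8969 of the 45028 probe sets were called, in the same order. These values for all genes and all probe sets are for each scaling alone, and those kept on all 3 were not counted.

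**Figure D2:**
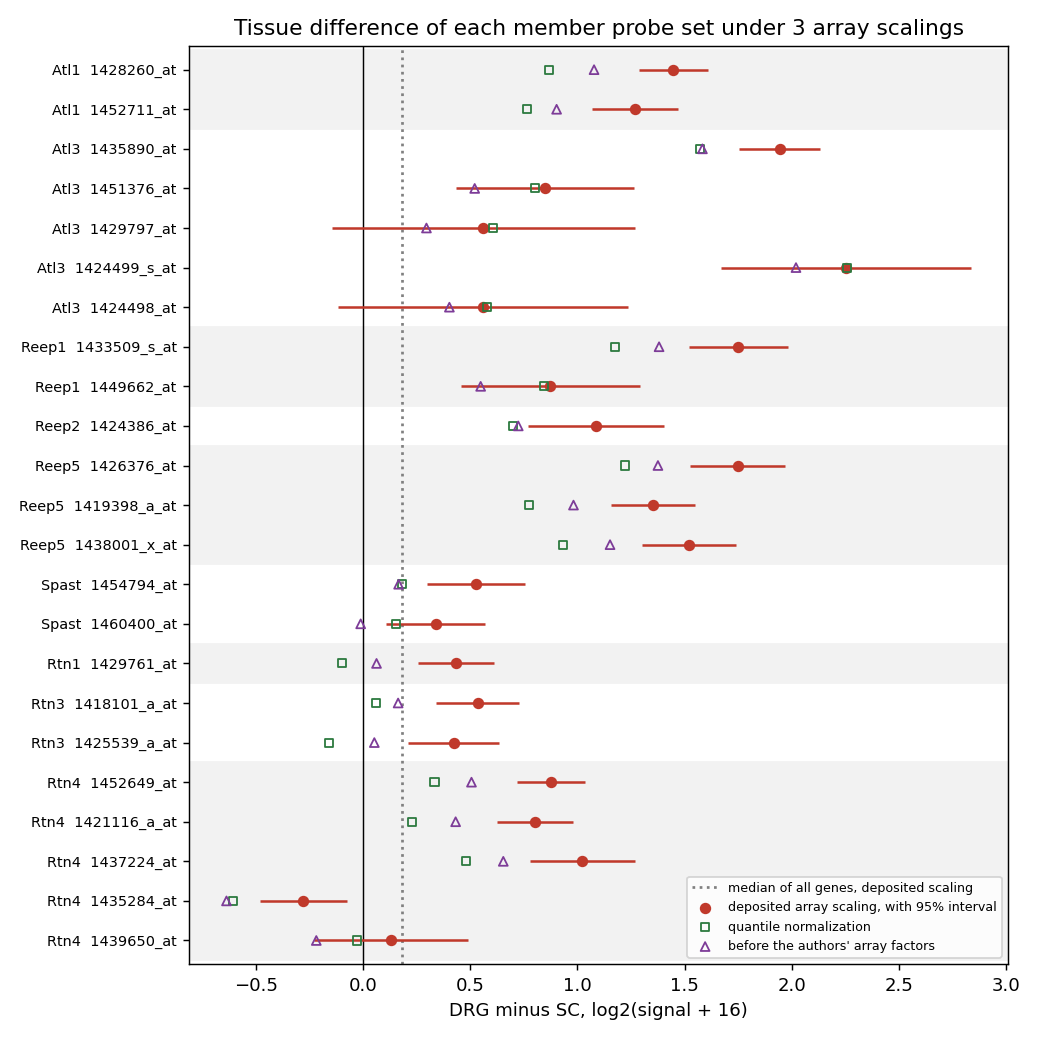
DRG minus SC difference of log2(signal + 16) for each member probe set on the deposited array scaling (red, with limma's 95% interval), after quantile normalization (green squares) and before the authors' array factors (purple triangles). The rows of Atl1, Reep5 and the brightest probe sets of Atl3 and Reep1 stay right of 0 on each scaling, while Rtn1 runs from 0.43 to 0.06 and −0.10.

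Both measured atlastins were higher in DRG. Atl1, the atlastin best known from neurons, gave signals of 4484, 4351 and 4182 on the DRG arrays, against 1586, 1493 and 1667 on the SC arrays, with its brighter probe set. The lowest DRG array was above the highest SC array by a wide margin, and the arrays of a tissue lay close together. The fold of signals was 2.74, and the log2 difference was 1.45 ± 0.0708 (SE, n = 3 per tissue, adjusted p = 4.79e-07). The second probe set of Atl1 had 1592, 1629 and 1851 in DRG and 660, 760 and 656 in SC, a difference of 1.27 ± 0.0888 (SE, adjusted p = 4.51e-06). Both probe sets of Atl1 therefore moved in the same direction and their 95% intervals, 1.29 to 1.61 and 1.07 to 1.47, overlapped.

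Atl3, an atlastin found in many cell types, showed the largest difference among the brightest probe sets of the 9 genes. It gave 1233, 1383 and 1276 on the DRG arrays against 301, 345 and 329 on the SC arrays. The tissues did not overlap, and the fold of signals was 3.99, with a log2 difference of 1.94 ± 0.0836 (SE, adjusted p = 2.18e-07). On this probe set, only 2.65% of all genes had a larger difference toward DRG. The other 4 probe sets of Atl3 were dim. Probe set 1451376_at read 198, 150 and 164 in DRG and 87.8, 73.6 and 102 in SC. No SC array was above the background level, so its fold is at least 1.64 (adjusted p = 0.00582, or 0.0544 before the array factors). Probe set 1424499_s_at, of a type that can match several transcripts, gave 80.7, 123 and 120 on the DRG arrays against 7.46, 10.3 and 11.5 (adjusted p = 0.00011), but a single DRG array was above that level and no fold is given. The remaining pair, 1429797_at and 1424498_at, was above the level on no array, and DRG and SC arrays overlapped on both.

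All 3 REEP genes were higher in DRG. Reep1, a tubule-forming protein that links ER and microtubules, gave 5605, 5406 and 5483 on the DRG arrays against 1816, 1706 and 1377 on the SC arrays. The DRG arrays lay within a narrow range far above the SC arrays. The fold of signals was 3.39 and the log2 difference 1.75 ± 0.101 (SE, adjusted p = 1.36e-06). That probe set can match several transcripts. The dim probe set 1449662_at of the same gene read 183, 157 and 141 in DRG and 67.1, 89.2 and 84.5 in SC, at least 1.54-fold (adjusted p = 0.00509), and was not called before the array factors (0.0505).

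Reep5, the broadly expressed member of the family, was measured by 3 bright probe sets that moved together. The brightest read 10062, 10886 and 10822 in DRG and 3384, 2731 and 3356 in SC, a fold of 3.37 and a log2 difference of 1.75 ± 0.0974 (SE, adjusted p = 1.09e-06). The other probe sets differed by 1.35 ± 0.0865 and 1.52 ± 0.0973 (SE, adjusted p = 2.54e-06 for both). No DRG array of any Reep5 probe set was within the range of the SC arrays.

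Reep2, a close relative of Reep1 found mainly in neurons, was measured by 1 probe set. It gave 1048, 780 and 897 on the DRG arrays against 454, 340 and 466 on the SC arrays, with more spread between arrays than Reep1 or Reep5. The tissues still did not overlap, and the log2 difference was 1.09 ± 0.141 (SE, adjusted p = 0.000251), or 0.70 after quantile normalization (0.00449) and 0.72 before the array factors (0.00246).

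Spast, the microtubule-severing enzyme, differed little between tissues. Its brighter probe set read 668, 568 and 551 in DRG and 402, 378 and 444 in SC, and the other read 268, 298 and 279 against 221, 223 and 214. DRG arrays were above SC arrays on both, with log2 differences of 0.53 ± 0.102 and 0.34 ± 0.103 (SE, adjusted p = 0.00301 and 0.0312). After quantile normalization these were 0.18 (adjusted p = 0.247) and 0.15 (0.357), and before the array factors 0.17 (0.246) and −0.0117 (0.948). The call of the dimmer probe set also ended without any single one of DRG replicates 2 and 3 and SC replicates 1, 2 and 3, with adjusted p up to 0.0855. No direction is therefore given for Spast.

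Rtn1 and Rtn3, reticulons abundant in neurons, were bright in both tissues and had no settled difference. Rtn1 read 6524, 6091 and 6744 in DRG and 5088, 4563 and 4671 in SC, a fold of 1.35 and a log2 difference of 0.43 ± 0.0786 (SE, adjusted p = 0.00202). The brighter probe set of Rtn3 read 8707, 9995 and 9612 in DRG and 6646, 6097 and 6772 in SC, with 0.53 ± 0.0856 (SE, adjusted p = 0.000946). Its other probe set read 4338, 4537 and 4288 against 3728, 3196 and 2928, with 0.42 ± 0.0938 (SE, adjusted p = 0.00651). DRG arrays were above SC arrays on all 3 probe sets on the deposited scaling. After quantile normalization the differences were −0.10 for Rtn1 and 0.06 and −0.16 for Rtn3, and before the array factors 0.06, 0.16 and 0.05, none of them called. The brightest 10% of genes had a median of 0.59 on the deposited scaling, one of 0.0272 with quantile normalization and one of 0.22 before the array factors. On the deposited scaling all 3 probe sets lay below that median, and after quantile normalization the brighter Rtn3 probe set lay above it.

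Rtn4 was higher in DRG on its 3 bright probe sets and not on its 2 dimmer ones. The brightest, 1452649_at, read 7357, 7234 and 7232 in DRG and 4053, 3743 and 4074 in SC, a fold of 1.84 and a log2 difference of 0.88 ± 0.0708 (SE, adjusted p = 1.13e-05). Probe set 1421116_a_at read 5794, 5413 and 5638 in DRG and 3462, 3209 and 2980 in SC (0.80 ± 0.0782, SE, adjusted p = 3.84e-05). Probe set 1437224_at read 2245, 1729 and 1871 against 916, 1051 and 878 (1.02 ± 0.109, SE, adjusted p = 6.77e-05). On each of these, every DRG array was above every SC array, and the calls stood on all 3 scalings, with differences of 0.23 to 0.48 after quantile normalization and 0.43 to 0.65 before the array factors.

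The probe set 1435284_at of Rtn4 went the other way. It read 388, 375 and 422 in DRG and 461, 515 and 472 in SC, all above the background level. Every SC array was above every DRG array, by 1.22-fold, and the log2 difference was −0.28 ± 0.0889 (SE, adjusted p = 0.039). It was larger after quantile normalization, at −0.61 (adjusted p = 0.000511), and before the array factors, at −0.64 (0.000341). On the deposited scaling the call ended without any single array other than DRG replicate 3, with adjusted p up to 0.147, and under the replicate block (0.0687). The probe set 1439650_at read 210, 226 and 251 in DRG and 199, 261 and 171 in SC, and the tissues overlapped (0.13 ± 0.159, SE, adjusted p = 0.618). Of the 855 genes with at least 5 probe sets tested, 10.5% had calls in both directions as Rtn4 did, 9.12% after quantile normalization and 13.1% before the array factors. Which Rtn4 transcripts these probe sets detect was not tested.

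**Figure D3:**
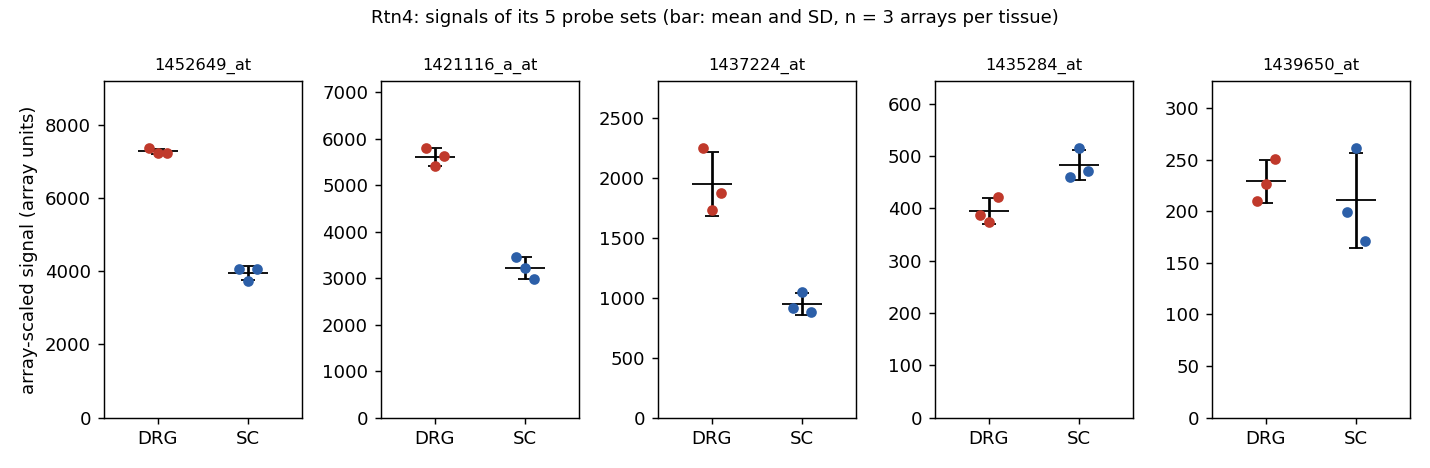
Array-scaled signal (array units, axis from 0, own scale per panel) of the 5 Rtn4 probe sets on the 3 DRG arrays (red) and 3 SC arrays (blue), with mean and SD. The first 3 panels show DRG above SC, the panel of 1435284_at shows SC above DRG, and the panel of 1439650_at shows overlapping arrays.

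Within a family, the tissue difference of one gene was set against that of another on the same array, which removes the array factors apart from a small effect of the pseudocount. The test was an exact permutation test over the 6 arrays, two-sided, whose smallest p is 0.1, so no pair could pass 0.05, and 7 pairs were compared. The difference of Atl1 was smaller than that of Atl3 by 0.50 on the log2 scale (DRG minus SC of Atl1 minus Atl3, −0.50, exact p = 0.1, adjusted 0.14), and the arrays did not overlap. With the mean of all probe sets of each gene it was 0.13 in the other direction, and the dim Atl3 probe sets enter that mean. Reep2 differed less than Reep5 (−0.66) and Reep1 more than Reep2 (0.66), with arrays apart in both cases (exact p = 0.1, adjusted 0.14, for each). The value of Reep1 minus Reep2 was 0.47 after quantile normalization (exact p = 0.2) and 0.23 with the mean of all probe sets (exact p = 0.3), and the arrays then overlapped. Probe sets with the suffix _s_at or _x_at were also left out, while those with _a_at were kept. Reep1 is then left with its dim probe set, whose difference was smaller than that of Reep5 (−0.87, arrays apart, exact p = 0.1, adjusted 0.14). In this setting the value of Reep1 against Reep2 was −0.21 with overlapping arrays (exact p = 0.6, adjusted 0.6). By their brightest probe sets, Reep1 and Reep5 had nearly the same difference (0.00419, exact p = 1), and their within-array values overlapped between tissues. Rtn1 and Rtn3 differed less than Rtn4, by −0.44 and −0.34, with arrays apart (exact p = 0.1, adjusted 0.14, for each) when the brightest probe set of each gene was used, while Rtn1 minus Rtn3 was −0.10 with overlapping arrays (exact p = 0.5, adjusted 0.583). With the mean of all probe sets, which takes in the dimmer Rtn4 ones, the values against Rtn4 were −0.0764 (exact p = 0.4) and −0.0312 (exact p = 0.9), and the arrays overlapped.

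Most other genes that shape or tether ER membranes were also called toward DRG on the deposited scaling. Of 22 measured, limma called 15 toward DRG and 0 toward SC (1 in SC at an unadjusted p under 0.05), with a median difference of 0.52, where 31.8% and 9.69% of all genes were called. Retreg1, an ER-phagy receptor with a reticulon domain that is mutated in sensory neuropathy, read 2905, 2707 and 2632 in DRG and 967, 1028 and 1082 in SC (1.41 ± 0.0734, SE, adjusted p = 7.2e-07). Lnpk, lunapark, which sits at tubule junctions, differed by 1.16 ± 0.0855 (SE, adjusted p = 6.07e-06). Both calls stood on all 3 scalings, but the list counts became 6 and 5 with quantile normalization, beside 20.5% and 16% of all genes. Without the array factors they were 4 and 4, beside 19.3% and 19.7%. Of the relatives of the members, chosen after their values were seen, Rtn2 differed by 0.57 (adjusted p = 0.000389) and was not called on the other scalings (0.12, adjusted p = 0.259, and 0.20, 0.0549). Reep3 differed by 0.0118 (0.956), but was called higher in SC with quantile normalization (−0.38, 0.0168) and without the array factors (−0.35, 0.0215). Reep4 was above background on 2 DRG arrays and no SC array, and Reep6 on none.

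Genes of spastic paraplegia other than the members were mostly called toward DRG on the deposited scaling and split between tissues on the other scalings. Of 40 measured, 24 were called toward DRG and 3 toward SC, beside 31.8% and 9.69% of all genes. The median was 0.39. These counts became 10 and 14 with quantile normalization, beside 20.5% and 16% of all genes. Without the array factors they were 12 and 12, beside 19.3% and 19.7%. L1cam, an adhesion molecule of axons, read 5889 ± 519 in DRG and 1091 ± 58.5 in SC (SD, n = 3 each), a difference of 2.41 (adjusted p = 6.04e-08). Ap4m1, a subunit of the AP-4 adaptor, was called higher in DRG (adjusted p = 0.00179), but it was above background on only 2 DRG arrays and on no SC array, and no size is given. Toward SC, Fa2h, which hydroxylates fatty acids of myelin lipids, differed by −1.98 (adjusted p = 2.19e-07) and Kif1c, a kinesin motor, by −1.32 (5.41e-06).

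Receptors and partners of Nogo included genes far higher in either tissue. Of 17 measured, 11 were called toward DRG and 3 toward SC, beside 31.8% and 9.69% of all genes. The median was 0.43. These counts became 4 and 4 with quantile normalization, beside 20.5% and 16% of all genes. Without the array factors they were 5 and 3, beside 19.3% and 19.7%. Ngfr, the p75 neurotrophin receptor and a Nogo co-receptor, read 5530 ± 263 in DRG and 89.2 ± 11.3 in SC (SD, n = 3 each), and was called higher in DRG (adjusted p = 2.11e-09). It was above background on only 1 SC array, so the fitted difference of 5.73 is taken against a signal near background. Rtn4rl1, a homologue of the Nogo receptor, read 1013, 698 and 793 in DRG and 193, 172 and 208 in SC (2.03 ± 0.139, SE, adjusted p = 3.93e-06). The other homologue, Rtn4rl2, was at least 2.88-fold higher in DRG (adjusted p = 4.22e-05). The Nogo receptor Rtn4r itself read 143, 101 and 145 in DRG and 127, 84.9 and 128 in SC, near background, and was not called (adjusted p = 0.612). Rtn4r and Rtn4rl2 were picked after their values were seen. The other central myelin ligands of this receptor were higher in SC, Mag by −3.57 (adjusted p = 1.27e-08) and Omg by −2.86 (2.28e-05), the latter above background on 2 of the 3 DRG arrays.

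Partners of spastin were mostly called toward DRG on the deposited scaling. Of 15 measured, limma called 10 toward DRG and 0 toward SC (0 at an unadjusted p under 0.05). The median was 0.52, and 31.8% and 9.69% of all genes were called in these directions. The list counts became 5 and 1 with quantile normalization, beside 20.5% and 16% of all genes. Without the array factors they were 7 and 1, beside 19.3% and 19.7%. The list holds subunits of ESCRT-III, the membrane-cutting complex that recruits spastin, and other microtubule-severing enzymes. Vps4b, the ATPase that takes ESCRT-III apart, read 1979, 2033 and 2238 in DRG and 558, 573 and 517 in SC (1.89 ± 0.0774, SE, adjusted p = 1.7e-07), and the ESCRT-III subunit Chmp1a differed by 1.54 ± 0.169 (SE, adjusted p = 8.12e-05). Both calls stood on all 3 scalings.

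Chaperones and translocon genes of the ER were set beside the members as other genes of the organelle. The amount of ER itself was not measured. Of 24 measured, limma called 18 toward DRG and 0 toward SC (0 at an unadjusted p under 0.05). The median was 0.48, and 31.8% and 9.69% of all genes were called in these directions. The list counts became 5 and 3 with quantile normalization, beside 20.5% and 16% of all genes. Without the array factors they were 7 and 1, beside 19.3% and 19.7%. Sec61a1, the pore subunit of the translocon, differed by 1.63 (adjusted p = 3.94e-07) and Pdia3, a disulfide isomerase, by 1.02 (7.94e-06). The median of the 9 member genes, 1.09, was above that of these 24 genes, and the difference between the lists was not tested.

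Of 14 genes of ER-phagy and partners of reticulons, 11 were called toward DRG and 1 toward SC, beside 31.8% and 9.69% of all genes. The median was 0.93. These counts became 9 and 3 with quantile normalization, beside 20.5% and 16% of all genes. Without the array factors they were 10 and 3, beside 19.3% and 19.7%. Besides Retreg1, which is in this list too, the ER-phagy receptor Tex264 differed by 1.26 ± 0.107 (SE, adjusted p = 1.62e-05). Bcl2l1, an inhibitor of apoptosis that binds reticulons, was higher in SC at −0.43 (adjusted p = 0.00259).

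**Figure D4:**
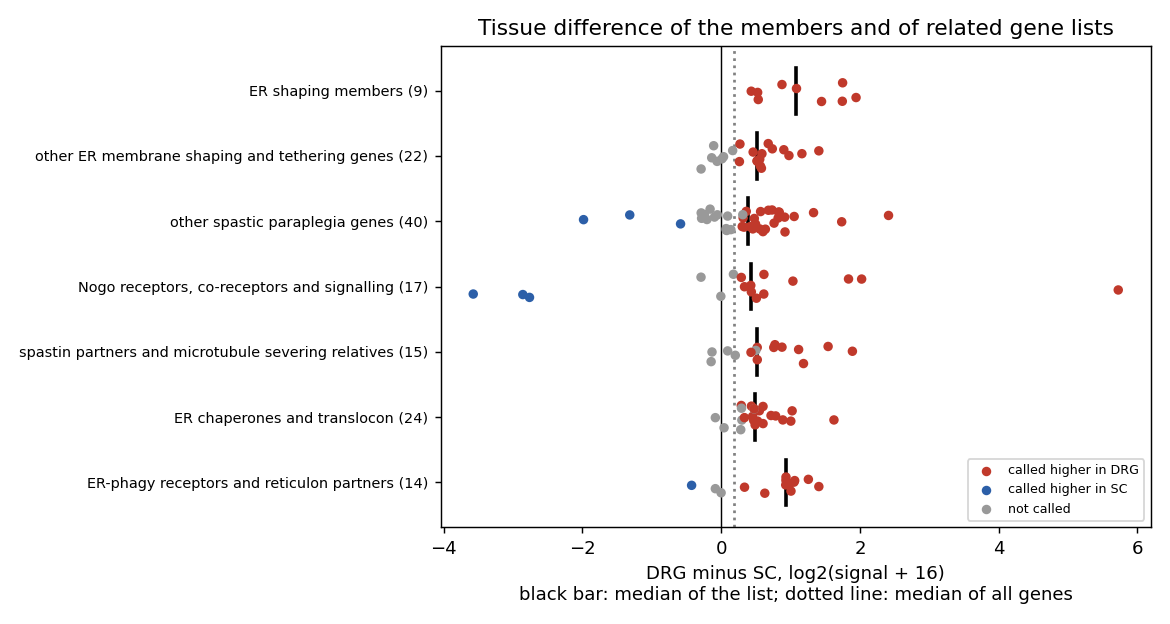
DRG minus SC difference of log2(signal + 16) on the deposited scaling for the 9 member genes and for the genes of 6 related lists, each gene by its brightest probe set, coloured by call. Black bars mark list medians, 1.09 for the members and 0.39 to 0.93 for the lists, and the dotted line marks the median of all genes, 0.18.

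The cell makeup of the tissues differs. Markers of some cell types were mostly called toward DRG, as the members were, and those of others toward SC. In RNA of whole tissue, more cells of a type and more RNA per cell cannot be told apart. On the deposited scaling, used for the marker counts unless another is named, 31.8% of all genes were called toward DRG and 9.69% toward SC. Of 10 markers of neurons in both tissues, 8 were called toward DRG and 1 toward SC. Their median was 1.08, and their summed signals were 69402 to 71610 in DRG and 37460 to 42167 in SC. With quantile normalization 7 and 2 were called (median 0.48), beside 20.5% and 16% of all genes. Before the array factors 6 and 2 were called (median 0.71), beside 19.3% and 19.7%. Of 10 markers of spinal motor neurons and interneurons, 8 were called toward SC and 1 toward DRG, the summed signals being 3744 to 4053 in DRG and 8041 to 8312 in SC. Of 10 oligodendrocyte markers, 9 were called toward SC and 0 toward DRG, the sums being 11447 to 12300 in DRG and 28308 to 33061 in SC. Of 8 markers of Schwann and satellite glia, 7 were called toward DRG and 1 toward SC, the sums being 26742 to 27221 in DRG and 4355 to 5139 in SC. Of 8 fibroblast and matrix markers 6 were called toward DRG (summed signals of 14973 to 16407 in DRG and 2842 to 3100 in SC), and of 8 microglia and macrophage markers 6 toward SC (1968 to 2061 in DRG and 3049 to 3374 in SC). Endothelial and mural markers split 3 toward DRG and 1 toward SC of 7, and 2 and 2 before the array factors. Those of fat, muscle and cartilage split 2 and 1 of 7, and of 2 blood markers 1 was higher in DRG. The part of cell makeup in the differences of the ER shaping genes was not tested.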

How the data were processed

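The submitters' processing notes name MAS5 (per the submitters' processing notes, with no version). The values the authors deposited are linear ratios, not signals as the fixed tests had assumed. Their steps were read from the values, since no source states them: each is a signal over an array factor and over the median of its probe set (median 1 in 91.8% of probe sets). Because MAS5 writes signals in steps of 0.1, the smallest multiplier putting all 6 values of a probe set on whole steps was taken, which gave signals for 45092 of 45101 probe sets. On simulated data 98.5% were recovered exactly and 1.45% were off by a factor common to all arrays. The simulated ratios were made by these same steps, so they cannot show whether the steps are those of the authors. Values at the deposited floor of 0.01 are upper bounds, and no member had one.

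The 64 control probe sets were left out. The platform annotation gives 1 gene for 34945 probe sets, several for 932 and none for 9160, and was matched by Entrez identifier to RefSeq of GRCm38.p6. Tests used limma 3.58.1 in R 4.3.3 (lmFit, eBayes with intensity trend, two-sided, Benjamini-Hochberg over 45028 probe sets) on log2(signal + 16). In simulated data for this comparison, over 45028 probe sets, 35.8%, 89.6% and 100% of log2 differences of 0.5, 1 and 2 were called. Only 67, 67 and 66 probe sets were changed there, drawn from the brighter ones, against 14609 called in the data. The Benjamini-Hochberg cut-off was therefore stricter in the simulation, and these shares do not give the sensitivity here. The probe set of highest mean log2 signal stands for a gene. The background level is the 95th percentile of 49 probe sets of 39 genes foreign to both tissues, 91.8 to 126 over the arrays. A tissue with no array above it gives a lower bound on the fold. Of that list, 4 genes were called higher in DRG and 0 in SC (0 at an unadjusted p under 0.05).

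The members, lists and tests were chosen with earlier results of these data known. Named genes were every member and, from each list, up to 2 called genes per direction with the largest difference and no overlap of arrays. Cell type markers are given as counts. The design text calls the 3 samples of a tissue independent, and p-values measure the spread between these pools. Replicate numbers are shared between tissues. Precision is limited by the number of arrays. Recovery used Python 3.11.15 with numba 0.67.0, and figures matplotlib 3.10.9.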

Additional observations from a re-analysis of the deposited data

How the results depend on the processing

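With 3 arrays per tissue, small differences hang on the array scaling. Before the authors' array factors, 12 member probe sets were called higher in DRG, against 19 on the deposited scaling, and 9 were when each gene's brightest probe set alone was tested, since fewer probe sets were tested. The count of 1 member probe set called higher in SC was 0 with log2 of the deposited ratio, without the intensity trend and with the replicate block. It was 0 to 1 with an array left out. With brightest probe sets alone the count was 0 because 1435284_at of Rtn4 was not among those tested. All 9 genes stayed called higher in DRG under each alternative but quantile normalization and signals before the array factors, with 6 each. Probe sets that reversed were 1460400_at of Spast (−0.0117) and 1439650_at of Rtn4 (−0.22) before the array factors, and Rtn1 (−0.10), 1425539_a_at of Rtn3 (−0.16) and 1439650_at of Rtn4 (−0.028) after quantile normalization. Pseudocounts of 1 and 64 changed no call of a member probe set.

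Atl1 minus Atl3 was 0.13 with the mean of all probe sets. Reep1 minus Reep5, 0.00419 as reported, was −0.0461 after quantile normalization, −0.00991 with pseudocount 64 and −0.87 without _s_at and _x_at probe sets. It was −0.23 with the mean of all probe sets, and −0.16 to 0.14 with an array left out. Reep1 minus Reep2 was −0.21 without _s_at and _x_at probe sets. The pair Atl1 and Atl2 was not run.

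Counts toward DRG after quantile normalization and before the array factors were 6 and 4 for other ER shaping genes (15 as reported), 10 and 12 for spastic paraplegia genes (24), 4 and 5 for Nogo signalling (11), 5 and 7 for chaperones (18), and 5 after quantile normalization for spastin partners (10). Counts toward SC were 5 and 4 for other ER shaping genes (0), 14 and 12 for spastic paraplegia genes (3), 1 and 1 for spastin partners (0), 3 and 1 for chaperones (0), and 3 and 3 for ER-phagy genes (1). Other ER shaping genes had 1 toward SC among probe sets above the median signal, with brightest probe sets alone and with the replicate block, and 0 to 1 with an array left out. The lists held 22 other ER shaping, 40 spastic paraplegia, 17 Nogo signalling, 15 spastin partner, 24 chaperone and 14 ER-phagy genes measured. After quantile normalization 20.5% of all genes were called toward DRG and 16% toward SC, and before the array factors 19.3% and 19.7%. The cause of the moves of the list counts was not tested.

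Same-numbered arrays of the tissues did not deviate together (correlations of deviations −0.01 to 0.06), so the numbers were not used as pairs. With the replicate block, 18 member probe sets were called higher in DRG, and the calls of 1460400_at of Spast (adjusted p = 0.0624) and 1435284_at of Rtn4 (0.0687) ended. The sign-flip test of the pairs by replicate number cannot go below 0.25.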
